A study of Mus musculus with 16 samples.

Results

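NADPH oxidases are enzymes that move electrons from NADPH across a membrane to oxygen, giving superoxide or hydrogen peroxide. The 8 genes described here are the oxidase subunit genes Nox1, Nox4, Cybb, Cyba, Ncf1, Ncf4, Rac1 and Rac2, chosen by gene symbol from the 52459 genes of a count table of sorted mouse bone marrow stromal cells. Of the 8 genes, 7 had enough reads to be tested, and Nox1 did not.

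The cells came from Townes mice, in which human globin genes replace the mouse ones, and were sorted as live single cells lacking CD45, Ter119 and CD31 and carrying CD51 and CD140a. Both genotypes carried the human alpha globin gene on both copies (hα/hα). SS mice were homozygous for human sickle beta globin (βS/βS), on an allele that the labels describe as also holding the human Aγ-globin gene, and SA mice, the controls, had 1 sickle and 1 wild-type human beta globin (βA/βS). There were 4 libraries of each genotype, each sequenced on 2 lanes, and neither age nor sex of the mice is in the labels. The controls therefore carry the sickle allele too, and no mouse without it was analysed here. The titles number the libraries within a genotype, and nothing further says that they came from separate animals, so the p-values describe the spread among libraries, part of which may be technical.

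In phagocytes, Cybb is the catalytic membrane subunit and Cyba its membrane partner. Ncf1 and Ncf4 are cytosolic subunits that move to the membrane on activation, and Rac2 is the GTPase of blood cells that completes the complex. Nox4 is a related catalytic subunit known from fibroblasts, endothelium and kidney, which needs Cyba but neither the cytosolic subunits nor a Rac GTPase and gives mainly hydrogen peroxide. Rac1 is the GTPase present in nearly all cells, and Nox1 is the catalytic subunit best known from colon epithelium. The comparisons ask how each gene differed between the genotypes, and how Nox4 varied against the phagocyte subunits and against Ptprc. Ptprc is the gene of CD45, the leukocyte surface protein that the sort was meant to leave out.

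Library totals ran from 24797857 to 31117007 counts. Levels are given as CPM, counts scaled to a common TMM-adjusted library total, with the mean ± SD over the 4 libraries of a genotype. Although the gate was CD45-, Ptprc read 748, 735, 209 and 124 CPM in SA replicates 1 to 4 and 499, 54.1, 206 and 49.7 CPM in SS replicates 1 to 4. SA replicates 1 and 2 and SS replicate 1 were the 3 libraries richest in it. Pdgfra, the gene of CD140a, read 331, 427, 481 and 451 CPM in SS and 260, 169, 476 and 449 CPM in SA, lowest in those same 3 libraries. Summed CPM of 8 pan-leukocyte marker genes ran from 604 to 3771 in SA and from 276 to 2180 in SS, and that of 10 neutrophil genes from 5385 to 31085 in SA and from 1196 to 14856 in SS. None of these 18 genes was at 0 in any library, and the median log2 fold change of SS over SA was -1.22 for the first list and -1.41 for the second. The 8 macrophage and monocyte markers were mixed, with 5 higher and 3 lower in SS, a median log2 fold change of 0.22 and sums of 117 to 956 CPM in SA and 124 to 728 CPM in SS. B cell markers summed to 41.8 to 209 CPM in SA and 1.71 to 39.6 CPM in SS (median log2 fold change -2.80, with 3 of 5 lower at an unadjusted p under 0.05 in edgeR), and of these Ms4a1 was at 0 in 1 library. Megakaryocyte markers summed to 5.12 to 270 CPM in SA and 4.63 to 23.9 CPM in SS (median -3.35, 3 of 4 lower at an unadjusted p under 0.05). No marker of these lists passed after adjustment, and the part of each cell type in the oxidase values was not tested. The sum of 7 stromal markers ran from 17043 to 39028 CPM in SA and from 21873 to 33724 CPM in SS. Xist, expressed from the inactive X chromosome, was read 57347 times in SS replicate 2 and no more than 420 times elsewhere, and the Y-linked Ddx3y was read 12 times there and at least 2282 times elsewhere. Cybb and Nox1 lie on the X chromosome, and the part of sex in their values was not tested.

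Nox4 was set against Cybb as a stromal against a leukocyte catalytic subunit, and which cells gave the Nox4 reads was not tested. The start regions of both are shown, 250 bases before to 50 bases after the RefSeq start on GRCm38.p6. The Nox4 window is chr7:87246399-87246698 on the plus strand and the Cybb window chrX:9469275-9469574 on the minus strand, and each is written 5′ to 3′ along its gene. Capitals mark the letters GAGGAA or their reverse complement, the core recognised by the myeloid transcription factor PU.1.
Nox4: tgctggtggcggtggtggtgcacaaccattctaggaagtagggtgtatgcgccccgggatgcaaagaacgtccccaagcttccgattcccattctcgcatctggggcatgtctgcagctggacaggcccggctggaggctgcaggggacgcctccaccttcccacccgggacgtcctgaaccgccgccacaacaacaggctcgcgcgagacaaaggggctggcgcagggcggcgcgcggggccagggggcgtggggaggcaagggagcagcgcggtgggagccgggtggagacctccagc
Cybb: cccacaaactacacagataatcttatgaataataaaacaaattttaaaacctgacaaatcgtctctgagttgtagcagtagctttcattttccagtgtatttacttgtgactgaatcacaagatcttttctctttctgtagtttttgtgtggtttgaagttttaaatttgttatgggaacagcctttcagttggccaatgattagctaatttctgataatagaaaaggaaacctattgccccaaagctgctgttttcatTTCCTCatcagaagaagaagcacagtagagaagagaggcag
The letters GAGGAA were searched on both strands, and occurred in 28.3% of the 32851 RefSeq windows of this length. Cybb had 1 match, on the strand opposite to the gene and starting 9 bases after its start, and Nox4 had none. Nox1 had 1 match, starting 23 bases before its start, and Cyba and Ncf1 had none. A match of 6 letters is a description of the sequence and not a binding site.

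Nox4 was the member with the highest ratio of SS to SA, but it did not pass the test over all genes. It lies at chr7:87246096-87398710 in GENCODE M21 on GRCm38. Its level was 2.44, 6.57, 1.34 and 7.88 CPM in SA replicates 1 to 4 and 2.82, 9.02, 30.8 and 21.9 CPM in SS replicates 1 to 4. SS replicates 2, 3 and 4 were above every SA library, whereas SS replicate 1 lay among the SA values, so the genotypes overlapped. The means were 4.56 ± 3.16 CPM in SA and 16.1 ± 12.6 CPM in SS, a log2 fold change of 1.82 with a standard error (SE) of 0.79. By edgeR's quasi-likelihood test the unadjusted p was 0.0421 and the p adjusted over 17316 genes was 0.695. An unadjusted p under 0.05 was reached by 6.98% of all tested genes. Nox4 rested on few reads, 40 in the lowest library (SA replicate 3) and 873 in the highest (SS replicate 3). Its log2 fold change was 1.31 to 2.23 when each library was left out in turn, and 2.16 without the 3 libraries richest in Ptprc.

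Cybb, on the minus strand at chrX:9435252-9487771, was abundant and uneven. It read 703, 892, 205 and 102 CPM in SA replicates 1 to 4 and 599, 70.4, 244 and 51.5 CPM in SS replicates 1 to 4. The highest values were in SA replicates 1 and 2 and SS replicate 1, the libraries highest in Ptprc, and the genotypes overlapped. The log2 fold change of SS over SA was -0.98 (SE 0.81), with an adjusted p of 0.824 in edgeR. In bulk RNA, fewer cells of a type and less RNA per cell cannot be told apart.

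**Figure D1:**
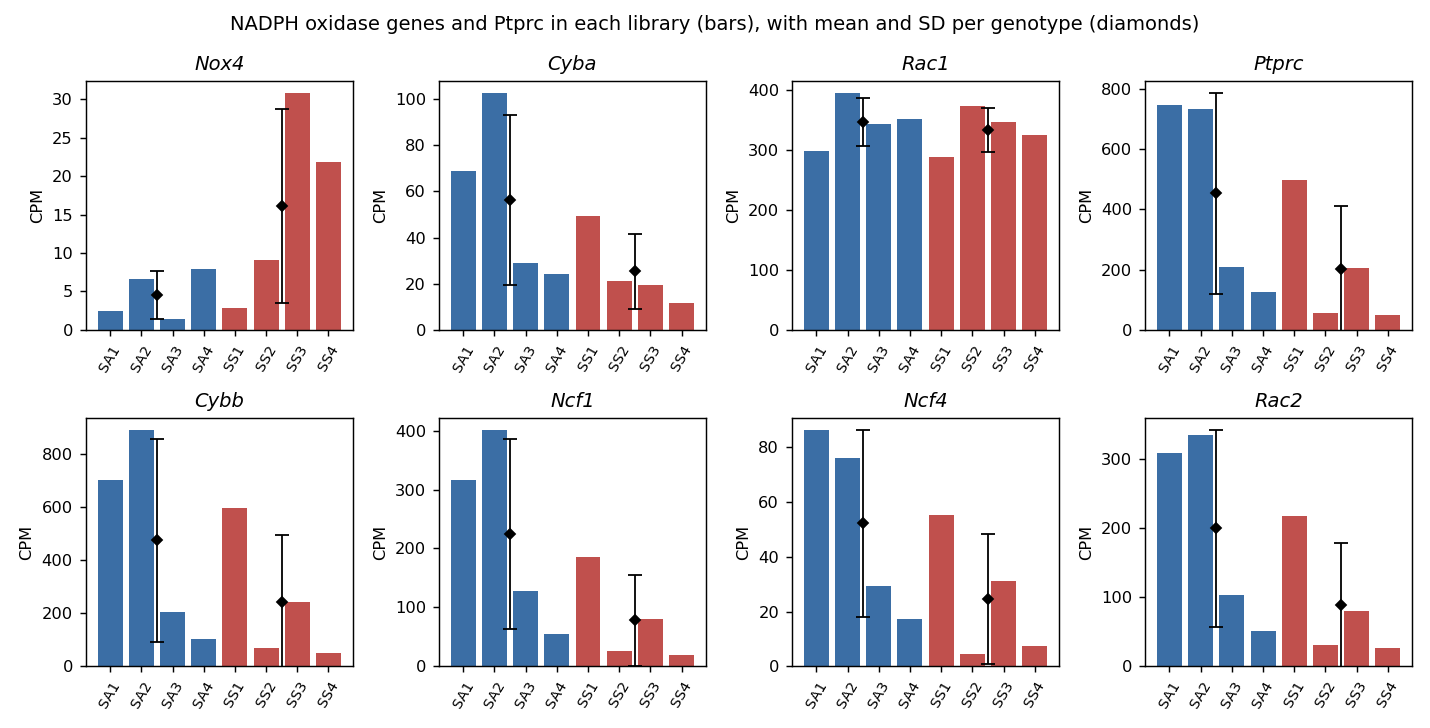
CPM of the 7 tested oxidase genes and Ptprc in each library, on linear axes from 0, with bars for the 4 SA (blue) and 4 SS (red) libraries and black diamonds for the genotype mean with 1 SD, whose lower end is not drawn below 0. Nox4 is highest in SS replicates 3 and 4 at 30.8 and 21.9 CPM, Rac1 stays between 288 and 396 CPM, and the other oxidase genes are high where Ptprc is high. Nox1 is not drawn.

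Nox1 was at or near 0. It had 0 counts in 5 of 8 libraries, 9 in SA replicate 3, 6 in SS replicate 3 and 1 in SA replicate 4. The 0 values allow up to 3 counts a library, which is at most 0.121 CPM before TMM scaling. This limit covers counting error alone, because PCR copies were not marked by molecular identifiers. At this depth no difference between genotypes was testable. The annotated span of Nox1 shares positions with those of Cstf2, Xkrx and Arl13a, and whether exons overlap was not checked. No source used here states whether strand was used in counting, so the few reads of Nox1 cannot be assigned with certainty.

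Cyba is the membrane partner that both Nox4 and Cybb need. It read 69.0, 103, 29.1 and 24.0 CPM in SA replicates 1 to 4 and 49.1, 21.2, 19.2 and 11.8 CPM in SS replicates 1 to 4. The SS values of replicates 2 to 4 were below every SA value, while SS replicate 1 was above SA replicates 3 and 4. The means were 25.3 ± 16.4 CPM in SS and 56.2 ± 37.0 CPM in SA, and the log2 fold change was -1.15 (SE 0.55, adjusted p = 0.729 in edgeR). Cyba, at chr8:122424776-122432930, lies within the annotated span of Gm20388 on the opposite strand. Whether exons overlap was not checked, so reads of the 2 genes may be mixed.

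Ncf1, the organizer of the cytosolic complex, had the most negative log2 fold change of the members, -1.53 (SE 0.75, adjusted p = 0.734 in edgeR). Its level was 316, 402, 127 and 55.6 CPM in SA replicates 1 to 4 and 186, 26.6, 81.2 and 19.4 CPM in SS replicates 1 to 4. The order of libraries was close to that of Ptprc, and the genotypes overlapped. Ncf1 overlaps Gtf2ird2 on the opposite strand. Ncf4, a cytosolic subunit that binds phosphoinositide, read 86.4, 76.2, 29.4 and 17.2 CPM in SA and 55.2, 4.56, 31.1 and 7.61 CPM in SS. SS replicate 1 was again above SA replicates 3 and 4, and the log2 fold change was -1.09 (SE 0.76, adjusted p = 0.786 in edgeR).

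Rac1 and Rac2 are close relatives, so their reads were checked for ambiguity. Their GENCODE M21 transcripts shared no run of 31 bases, and neither did those of Nox4 and Cybb or of Nox1 and Cybb.

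Rac1 was the steadiest member. It read 298, 396, 344 and 352 CPM in SA replicates 1 to 4 and 288, 375, 347 and 326 CPM in SS replicates 1 to 4. The highest library was 1.37 times the lowest, against 12.9 times for Rac2, 17.3 times for Cybb and 23.0 times for Nox4. The means were 334 ± 36.5 CPM in SS and 348 ± 40.1 CPM in SA, and the log2 fold change was -0.06 (SE 0.17, adjusted p = 0.967 in edgeR), with a sign that changed to 0.01 without SA replicate 2 or SS replicate 1. Rac1 overlaps Daglb on the opposite strand.

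Rac2 read 309, 334, 103 and 51.7 CPM in SA replicates 1 to 4 and 217, 30.8, 80.7 and 25.9 CPM in SS replicates 1 to 4. Its high libraries were again SA replicates 1 and 2 and SS replicate 1. The log2 fold change was -1.17 (SE 0.73, adjusted p = 0.766 in edgeR).

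None of the 7 tested members passed an adjusted p of 0.05 between genotypes, and neither did any gene, 0% of 17316. At an unadjusted p under 0.05 edgeR gave 1209 genes, Nox4 alone of the members. After adjustment, at the same threshold, DESeq2 called 86 genes higher and 43 lower with none of the members among them. Before adjustment DESeq2 gave 1667 genes, and of the members Nox4 and Cyba only. The members' median log2 fold change was -1.09, against -0.01 over all tested genes, with 1 member higher and 6 lower in SS. Ptprc itself differed by -1.17 (SE 0.78, adjusted p = 0.777 in edgeR). The genotypes did not overlap in CPM for 3.91% of all tested genes, and they overlapped for each of the 7 members. The sample titles hold numbers that look like dates, in 3 sets, none of which holds libraries of both genotypes, and set and genotype cannot be told apart.

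The phagocyte subunits followed Ptprc across libraries, while the slopes of Nox4 and Rac1 did not pass. In a model with genotype, 5 of 7 tested members had a positive slope on log2 Ptprc CPM at an adjusted p under 0.05 in edgeR, where 2.49% of 17315 genes did. A slope of 1 means that a gene doubles when Ptprc doubles. The slope was 1.06 (SE 0.07, adjusted p = 7.01e-05 in edgeR) for Cybb and 0.95 (SE 0.07, adjusted p = 0.000137 in edgeR) for Ncf1. Rac2 and Ncf4 had slopes of 0.92 (SE 0.07, adjusted p = 8.53e-05 in edgeR) and 0.94 (SE 0.11, adjusted p = 0.00149 in edgeR). Cyba's slope was shallower, 0.56 (SE 0.13, adjusted p = 0.0417 in edgeR). Nox4 had a slope of -0.20 (SE 0.33, adjusted p = 0.842 in edgeR) and Rac1 of -0.04 (SE 0.06, adjusted p = 0.809 in edgeR). The Nox4 slope was imprecise, and ran from -0.51 to 0.67 over 9 alternative fits.

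The number of calls depended on which libraries were in the fit. Without SA replicates 1 and 2 and SS replicate 1 no gene passed, and the slopes were 1.05 for Cybb, 0.99 for Ncf1, 1.15 for Ncf4, 0.82 for Rac2, 0.15 for Cyba and 0.20 for Nox4, with adjusted p-values in edgeR from 0.275 upwards. That fit had 5 libraries and a narrower range of Ptprc, and no other set of 3 libraries was left out, so what lost the calls was not tested. Leaving out 1 library at a time, Cybb, Ncf1, Ncf4 and Rac2 passed in all 8 fits. Cyba passed only without SS replicate 2 or SS replicate 3, with adjusted p-values up to 0.254 in the other 6. Without SS replicate 2, the 1 library of its title set, genotype and set coincide, and the slopes were 1.10 for Cybb, 0.98 for Ncf1, 0.86 for Ncf4, 0.95 for Rac2, 0.67 for Cyba and -0.32 for Nox4.

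**Figure D2:**
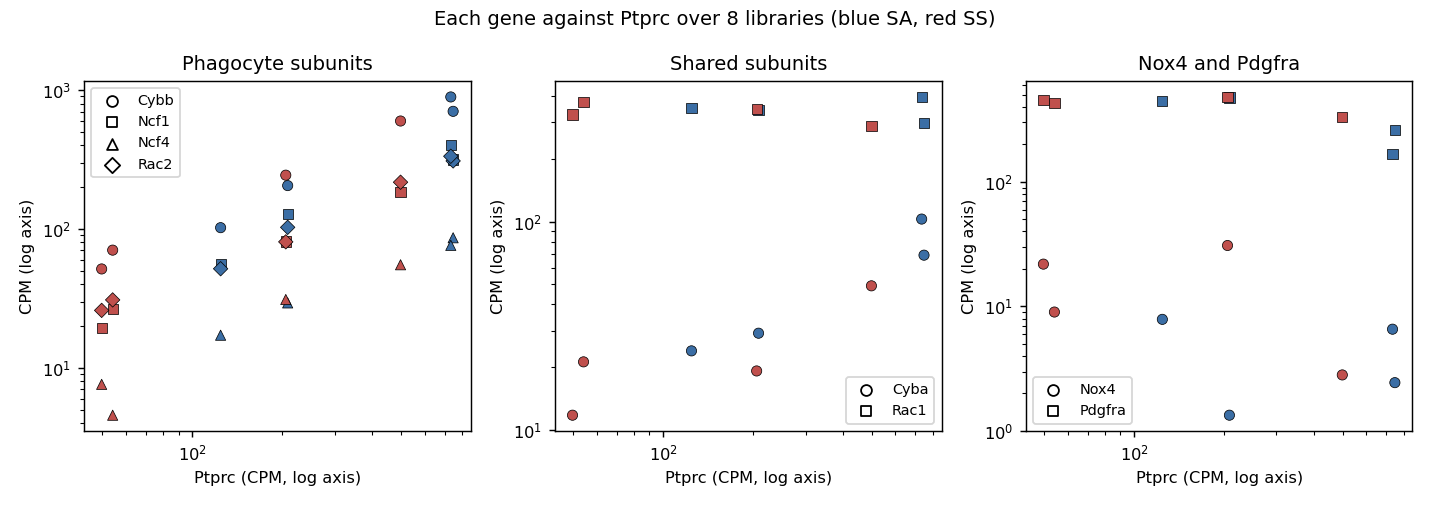
CPM of each gene against CPM of Ptprc in the same library, both on log axes, with blue symbols for the 4 SA and red for the 4 SS libraries. Cybb, Ncf1, Ncf4 and Rac2 lie along rising lines with slopes of 0.92 to 1.06, Rac1 is level between 288 and 396 CPM, and the Nox4 points scatter from 1.34 to 30.8 CPM.

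The difference between slopes was tested for 3 pairs by a two-sided exact permutation of the Ptprc values within genotype, with 576 arrangements. Nox4 minus Cybb was -1.38 (exact p = 0.0156, adjusted over the 3 pairs 0.0191), Rac1 minus Rac2 was -0.97 (exact p = 0.00174, adjusted 0.00521) and Cyba minus Cybb was -0.50 (exact p = 0.0191, adjusted 0.0191). The pair of GTPases kept an exact p of 0.00694 without each library in turn. That is the smallest p that 144 arrangements allow, as 0.00174 is for 576. These tests were added after the data were seen, which the adjustment over 3 pairs does not cover. The pair of Nox4 and Cybb gave an exact p of 0.0625 without SA replicate 4, 0.118 without SS replicate 1 and 0.0903 without SS replicate 4, with differences from -1.53 to -0.95 over the 8 omissions. The pair of Cyba and Cybb gave an exact p of 0.0556 without SA replicate 1 and 0.0764 without SA replicate 4.

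With Ptprc in the model the genotype differences of the phagocyte subunits were smaller in size. The log2 fold change of SS over SA was then 0.35 (SE 0.19) for Cybb, -0.38 (SE 0.21) for Ncf1, -0.07 (SE 0.31) for Ncf4, -0.01 (SE 0.19) for Rac2 and -0.27 (SE 0.39) for Cyba. Nox4 had 1.51 (SE 0.94) and Rac1 -0.12 (SE 0.18). None of the 7 passed in edgeR, where 1 gene of 17316 did, 0.00578%. The Cybb value thus changed sign from -0.98, and that of Nox4 moved by less than its SE.

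**Figure D3:**
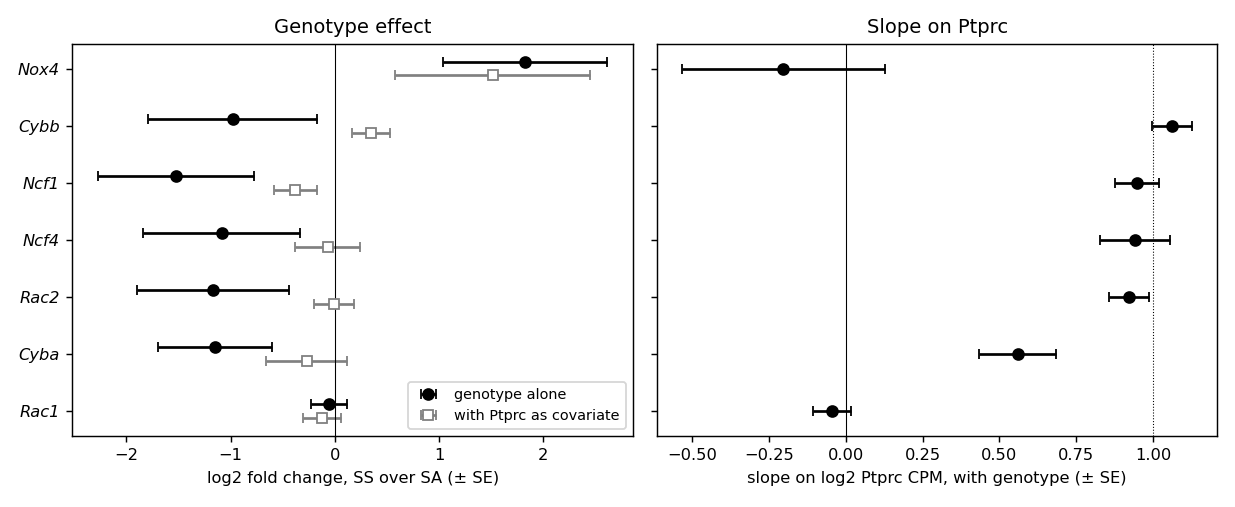
Left, log2 fold change of SS over SA with 1 SE for the 7 tested genes, from genotype alone (filled circles) and with Ptprc as a covariate (open squares). Right, slope on log2 Ptprc CPM with 1 SE, where the dotted line marks a slope of 1. Nox4 is at 1.82 and 1.51 on the left and at -0.20 on the right, while Cybb moves from -0.98 to 0.35 and has a slope of 1.06.

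Within a library, ratios of reads need no scaling. Nox4 had 0.348, 0.736, 0.652 and 7.71 reads per 100 Cybb reads in SA replicates 1 to 4, against 0.471, 12.8, 12.6 and 42.4 in the same order of SS. SS replicate 1 lay among SA replicates 1 to 3, and the other SS libraries were above all of SA. The mean log2 ratio was -6.54 ± 1.96 in SA and -3.73 ± 2.79 in SS, a difference of 2.82 with a two-sided exact permutation p of 0.114, where 4 libraries against 4 cannot go below 0.0286. Per 100 reads of the stromal marker Pdgfra, Nox4 had 0.940, 3.89, 0.281 and 1.75 reads in SA replicates 1 to 4. In SS replicates 1 to 4 it had 0.852, 2.11, 6.42 and 4.84. By that ratio SS replicates 3 and 4 alone were above all of SA, and SS replicate 2 was below SA replicate 2. Cybb and Ptprc, by comparison, kept nearly the same proportion, at 82.1 to 130 Cybb reads per 100 Ptprc reads. Rac2 ran from 39.2 to 57.0 and Ncf4 from 8.43 to 15.3 reads per 100 Ptprc reads. Cyba was lowest at 9.22 (SA replicate 1) and highest at 39.2 (SS replicate 2). Rac2 per 100 Rac1 reads was lowest at 7.95 (SS replicate 4) and highest at 104 (SA replicate 1).

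**Figure D4:**
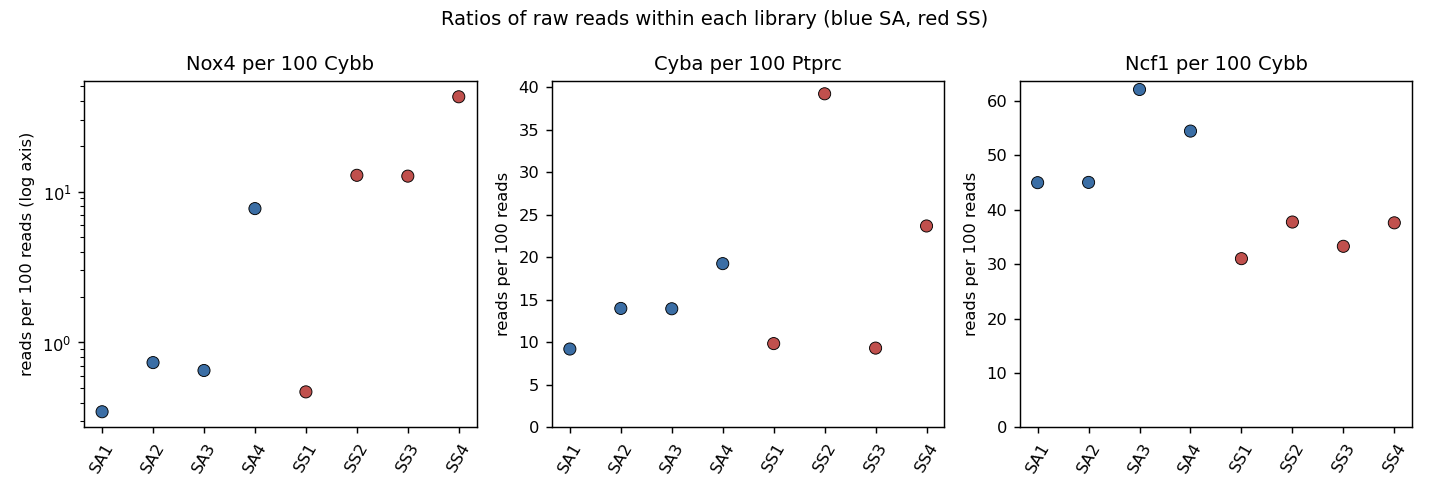
Ratios of raw reads in each of the 4 SA (blue) and 4 SS (red) libraries, with a log axis for Nox4 per 100 Cybb and linear axes from 0 for Cyba per 100 Ptprc and Ncf1 per 100 Cybb. Nox4 per 100 Cybb spans 0.348 to 42.4, Cyba per 100 Ptprc is highest in SS replicate 2 at 39.2, and Ncf1 per 100 Cybb is 45 to 62.1 in SA and 31 to 37.8 in SS.

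Per kilobase of annotated exon, an RPKM-like level from GENCODE M21 lengths, the mean over 8 libraries was 75.8 for Rac1, 61.7 for Cybb, 46.4 for Rac2, 41.4 for Ncf1, 39.2 for Cyba, 19.0 for Ncf4, 1.22 for Nox4 and 0.0208 for Nox1. From Rac1 to Cyba, each gap between neighbours in this order was smaller than the SD of the less abundant gene within a genotype. Rac1 stood first in SA replicates 3 and 4 and in SS replicates 2, 3 and 4, and Cybb in the 3 libraries richest in Ptprc. Nox4 was below Cybb per length in every library, by the least in SS replicate 4 at 2.58 against 8.87. Cyba, at 11.3 there, was above both.

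The genes whose log2 CPM was most like that of Nox4 over the 8 libraries, of 10675 ranked, were Commd3 (Pearson r = 0.98), Sspn (r = 0.97), Chchd3 (r = 0.97), Gjc1 (r = 0.96) and Zfp759 (r = 0.93). For Cybb they were Gca, Selplg, Abca13, Lcp1 and Rac2, each with r = 0.99. Among them Lcp1 is a leukocyte actin-bundling protein and Selplg the selectin ligand of leukocytes. Nox4 against Cybb gave r = -0.48 and against Pdgfra r = 0.27. These are descriptions over 8 libraries that differ in depth and in leukocyte content, with no test.

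**Figure D5:**
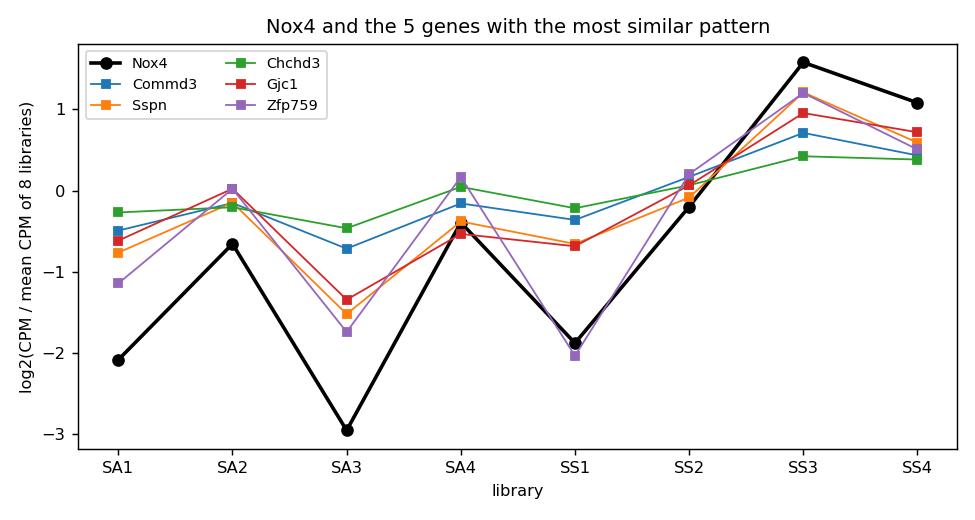
log2 of CPM over the 8-library mean for Nox4 (black) and the 5 genes most like it, by library, with lines only joining points of one gene. Nox4 is lowest in SA replicate 3 at 1.34 CPM and highest in SS replicate 3 at 30.8 CPM, and Sspn follows the same libraries from 15.1 to 99.9 CPM.

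Other genes of the oxidase system were read in the same way. Of 10 listed Rac regulators, all tested, all 10 were lower in SS by sign and none passed, Elmo1 by -0.0021 and Arhgdia by -0.04, less than the median of all genes moved between scalings (-0.07 to 0.03). The list had a median log2 fold change of -1.004 against -0.01 over all genes. On Ptprc, 7 of the 10 had a positive slope that passed in edgeR, as did 2.49% of all genes, and none did without the 3 libraries richest in Ptprc. The 7 were the exchange factors Vav1, Vav3, Prex1, Tiam1 and Dock2, the inhibitor Arhgdib and the GTPase activator Arhgap25. Their slopes ran from 0.56 for Prex1 to 1.06 for Vav1, and the median of the list was 0.67 against -0.02 over all genes. Elmo1, which works with Dock proteins, had 0.22 (SE 0.12) and did not pass, nor did Vav2 or Arhgdia.

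Of 13 genes listed as partners of Nox4 or as parts of pathways that induce it, TGF-beta signalling among them, 11 were higher and 2 lower in SS by sign and none passed, with a median log2 fold change of 0.38. Hif1a, a hypoxia-responsive factor and the gene of smallest p in the list, read 169 to 233 CPM in SS and 115 to 132 CPM in SA. The genotypes thus did not overlap, as for 3.91% of all tested genes. Hif1a differed by 0.69 on the log2 scale (SE 0.18, adjusted p = 0.56 in edgeR). The TGF-beta ligand genes Tgfb3 and Tgfb2 had 1.04 (SE 0.37) and 1.13 (SE 0.50), whereas the ligand gene Tgfb1 had -0.39 (SE 0.32). The receptor genes Tgfbr1 and Tgfbr2 had 0.005 (SE 0.32) and 0.17 (SE 0.28), and none of these genes was past the threshold. On Ptprc 1 of the 13, the smooth muscle actin gene Acta2, had a negative slope that passed, -0.61 (SE 0.14, adjusted p = 0.0475 in edgeR), as 0.462% of all genes did.

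Of 22 genes that remove superoxide and peroxide, 10 were higher and 12 lower in SS by sign and none passed. The extracellular superoxide dismutase Sod3 read 12.5 ± 8.99 CPM in SA and 45.3 ± 22.5 CPM in SS, which is 1.85 on the log2 scale (SE 0.52, adjusted p = 0.604 in edgeR). The endoplasmic reticulum peroxidase Gpx8 had 0.82 (SE 0.33), the glutathione reductase Gsr -0.86 (SE 0.38) and Prdx1 0.45 (SE 0.22). The slope on Ptprc passed for Gpx1 at 0.35 (SE 0.08) and for Gsr at 0.40 (SE 0.08), where 2.49% of all genes had a positive slope that passed. Without the 3 libraries richest in Ptprc no gene passed.

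Of 10 genes that supply NADPH, the oxidase substrate, 4 were higher and 6 lower in SS and none passed. Idh1, the cytosolic isocitrate dehydrogenase, differed by 0.72 on the log2 scale (SE 0.25, adjusted p = 0.695 in edgeR) and the malic enzyme Me2 -0.68 (SE 0.30). G6pdx, first enzyme of the pentose phosphate pathway, had -0.38 (SE 0.27). The NAD kinase Nadk was the list's 1 gene whose slope on Ptprc passed, 0.45 (SE 0.09), as did 2.49% of all genes in that direction.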

How the data were processed

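RNA of 8 mouse libraries, 4 SS and 4 SA, was analysed from a table of raw counts per gene symbol deposited by the authors. Per the submitters' processing notes, STAR, featureCounts, DESeq2 and bcl2fastq were used, with GRCm38 and mm10 as builds. Neither versions and roles nor annotation and strand setting are stated in the sources used here. The 16 samples are 2 lanes of each library. 1 lane of SS replicate 4 is SS in its title but SA in its source and mouse group, and was kept in SS. A deposited normalized table was not used.

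The quasi-likelihood test of edgeR 4.0.16 (R 4.3.3) was run on the counts (filterByExpr, TMM, robust fit, Benjamini-Hochberg over all genes kept, threshold 0.05), for genotype and for the slope on log2 Ptprc CPM with genotype. SE is the estimate over the root of F. DESeq2 1.42.0, other scalings and filters, Ptprc as covariate and omitted libraries were alternatives. The Nox4 to Cybb ratio, with a pseudocount of 0.5, had an exact permutation test. Exon lengths are from GENCODE M21. The scripts were tested on simulated data. No 2 libraries held the same counts. Each of the 8 chosen genes is named, and up to 4 genes of smallest p per list. For likeness, the 5 genes of highest r with a mean of at least 5 CPM are named. A few results selected in this way are left out here. The genes and lists were chosen with earlier results of these data known, and the tests of slope differences and the slopes without 3 libraries were added after seeing the data.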

Additional observations from a re-analysis of the deposited data

Results flagged for a closer look

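1 library stood far from the other 3 for Nox1 in both genotypes. Nox1 was highest in SA replicate 3 at 0.301 CPM, from 9 counts, and in SS replicate 3 at 0.212 CPM, from 6 counts. Chance alone flags about 1 in 20 groups of measured values, but that rate does not apply here: the other SS libraries had 0 counts, so that any count would have stood apart, and the other SA libraries had 0, 0 and 1.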

How the results depend on the processing

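The labels do not say whether replicate numbers pair the libraries. Deviations of same-numbered libraries from their genotype means correlated at 0.22, -0.15, -0.02 and 0.14. Differently numbered libraries were not compared in this way, so these values do not settle whether libraries were paired. With the replicate number as a block 0 genes and 0 oxidase genes passed on Ptprc in either direction, and the slopes were 1.06 for Cybb, 0.49 for Cyba, 0.92 for Ncf1, 1.10 for Ncf4, 0.86 for Rac2, 0.67 for Nox4 and 0.018 for Rac1, the last 2 with changed sign. The block left the log2 Nox4 to Cybb difference at 2.82 (sign-flip exact p = 0.125). DESeq2 called 86 genes higher and 43 lower between genotypes, and 1063 positive and 464 negative on Ptprc. Without a low-count filter 5 genes were higher in SS. With Ptprc as covariate 1 gene was lower and Cybb turned to 0.35. Without the genotype term 695 and 247 genes passed on Ptprc. Raw totals turned the Rac1 slope to 0.0048. Without the 3 leukocyte-rich libraries, Rac1 turned to 0.0022 between genotypes, and the slopes were 0.20 for Nox4, 1.05 for Cybb, 0.15 for Cyba, 0.99 for Ncf1, 1.15 for Ncf4 and 0.82 for Rac2, with 0 genes passing and 0 oxidase genes. The causes were not tested.

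Without each replicate in turn, Rac1 between genotypes ran from -0.13 to 0.013, the Nox4 slope from -0.47 to 0.058, and the Cyba slope from 0.49 to 0.67. Genes higher in SS ran from 0 to 1. Genes positive on Ptprc ran from 135 (without SS replicate 1) to 524, also 256, 241 and 225 without SA replicates 1, 2 and 4. Negative genes ran from 9 to 208, with only the omission of SS replicate 3 within 1.5 times of 80. The Nox4 minus Cybb slope ran from -1.53 to -0.95 and Cyba minus Cybb from -0.55 to -0.43. RLE factors, raw totals and either low-count filter changed no call of an oxidase gene between genotypes or on Ptprc. Upper-quartile factors changed none between genotypes, where alone they were run, and the pan-leukocyte mean none on the leukocyte slope. Depth limits Nox1, and Nox4 in libraries under 100 counts.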

Other observations

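Among other oxidase genes, Duox1 had a log2 fold change of 2.07 (SE 1.03), the organizer Noxo1 2.67 (SE 1.56) and the GTPase Rac3 0.41 (SE 0.98), and none of the 3 passed in edgeR. Nox3, Duox2 and Duoxa2 had no counts, and Noxa1 at most 2 counts in a library. Duoxa1, a maturation factor of dual oxidases, had 31 counts in SA replicate 3 and 0 in every other library.

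Ncf1 per 100 Cybb reads was 45, 45, 62.1 and 54.5 in SA and 31, 37.8, 33.3 and 37.6 in SS, without overlap. It was 1 of 13 ratios and was noticed after the values were seen, so no test is given. The annotated spans of Ncf1 and Gtf2ird2 overlap, and whether their exons do was not checked, so reads of the 2 genes may be mixed. Of 9 targets of the oxidant-responsive factor Nrf2, 3 were higher and 6 lower in SS and none passed. The haem oxygenase Hmox1 and the cystine transporter Slc7a11 had slopes on Ptprc that passed, 0.64 (SE 0.14, adjusted p = 0.0384 in edgeR) and 1.61 (SE 0.34, adjusted p = 0.0322 in edgeR). A positive slope passed for 2.49% of all genes, and for none without the 3 libraries richest in Ptprc. Slc7a11 read 12.3 to 79.3 CPM in SA, 47.5 and 18.5 CPM in SS replicates 1 and 3, and 0.217 and 0.484 CPM in SS replicates 2 and 4. Of 8 tested genes of other oxidant sources, 5 were higher and 3 lower in SS and none passed.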
